A study of Mus musculus with 9 samples.

Results

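The oligodendrocyte genes described here were 9 genes chosen by name from the normalized table of a Gpd1 knockout experiment in mouse brain tumor stem cells (BTSC). They comprised 5 precursor genes (Olig1, Olig2, Sox10, Cspg4 and Pdgfra) and 4 myelin genes (Cnp, Mbp, Mobp and Cldn11), out of 21899 genes in the table, and each symbol was found there. Poly(A) RNA was sequenced from 3 sgRNA1 KO libraries, 3 sgRNA2 KO libraries and 3 control libraries. The sgRNA1 KO and sgRNA2 KO groups were BTSC in which Gpd1, the gene of cytosolic glycerol-3-phosphate dehydrogenase, had been cut by Cas9 with 1 of 2 guides from the lentiCRISPv2 vector, and the control group was BTSC with no knockout in the labels. The knockout (KO) cells were kept in puromycin and then picked as single-cell colonies, per the labels, so a KO library may stand for 1 clone, while no colony picking is stated for the controls. Nothing in the labels says that the libraries of a group came from separate cultures, so the p-values measure only the spread between these libraries. No strain, age or sex of the source mouse is stated in the labels.

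In the brain, oligodendrocyte precursors divide in response to platelet-derived growth factor (PDGF) through the receptor PDGFRA, carry the NG2 proteoglycan encoded by Cspg4 on their surface, and depend on the transcription factors OLIG1, OLIG2 and SOX10. As they mature they lose PDGFRA and NG2 and switch on the genes of the myelin sheath. These include Cnp, whose phosphodiesterase appears before compact myelin, Mbp and Mobp, whose basic proteins hold the compacted membranes together, and Cldn11, whose claudin seals the sheath with tight junctions. Tumor cells of glioblastoma often carry precursor genes, and OLIG2 is widely used as a marker of their stem-like cells.

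The promoters of the 4 members that changed in KO libraries are shown, since they allow a comparison of Cspg4, Pdgfra and Cnp, which rose, with Cldn11, which fell. The windows run from 250 bases before to 50 bases after each RefSeq start on GRCm38.p6, and capitals mark matches on either strand to 4 motifs. Of these, CAGATG and also CAGCTG are E-boxes of the form CANNTG, which basic helix-loop-helix factors such as OLIG2 recognize, while ACAAAG and also ACAATG are forms of the SOX core.
Cspg4 promoter, chr9:56864854-56865153, plus strand: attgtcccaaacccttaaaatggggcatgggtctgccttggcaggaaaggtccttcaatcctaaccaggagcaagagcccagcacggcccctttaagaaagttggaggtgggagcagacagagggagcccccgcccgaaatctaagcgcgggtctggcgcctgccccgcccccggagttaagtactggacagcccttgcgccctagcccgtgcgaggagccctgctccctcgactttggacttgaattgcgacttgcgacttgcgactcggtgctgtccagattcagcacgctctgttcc
Pdgfra promoter, chr5:75152001-75152300, plus strand: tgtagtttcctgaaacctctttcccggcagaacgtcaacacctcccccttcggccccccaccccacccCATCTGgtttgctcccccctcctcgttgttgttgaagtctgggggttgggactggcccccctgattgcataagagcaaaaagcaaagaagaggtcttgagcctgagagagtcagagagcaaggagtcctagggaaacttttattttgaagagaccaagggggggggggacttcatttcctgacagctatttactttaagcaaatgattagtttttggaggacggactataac
Cnp promoter, chr11:100574689-100574988, plus strand: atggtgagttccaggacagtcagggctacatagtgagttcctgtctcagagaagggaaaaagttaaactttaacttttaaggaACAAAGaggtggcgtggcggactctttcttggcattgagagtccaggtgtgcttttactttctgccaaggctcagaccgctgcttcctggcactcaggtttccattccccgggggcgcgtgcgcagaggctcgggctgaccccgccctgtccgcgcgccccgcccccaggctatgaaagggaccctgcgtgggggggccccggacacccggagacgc
Cldn11 promoter, chr3:31149670-31149969, plus strand: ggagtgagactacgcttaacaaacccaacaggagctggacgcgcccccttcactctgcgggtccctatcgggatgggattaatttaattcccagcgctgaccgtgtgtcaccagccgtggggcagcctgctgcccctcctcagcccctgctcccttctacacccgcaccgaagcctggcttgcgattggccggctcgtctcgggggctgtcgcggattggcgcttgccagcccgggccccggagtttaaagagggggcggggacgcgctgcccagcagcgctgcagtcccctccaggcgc

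The promoter table held 6 of the 9 members: these 4, Olig2 and Mobp. Over all 32851 promoters of this length, CAGATG was present in 17.2%, CAGCTG in 16.3%, ACAAAG in 18.7%, ACAATG in 12.6% and the general E-box CANNTG, which includes the first pair, in 72.3%. The Pdgfra window held 1 CAGATG match, read on the other strand from base 69, and the Cnp window held 1 ACAAAG match at base 84, counted from the 5′ end. The Cspg4 and Cldn11 windows held none of the 4 capitalized motifs. CANNTG had 2 matches in the Pdgfra window, the CAGATG match included, and 1 in the Cnp window. It had 0 in the windows of Cspg4, Cldn11, Olig2 and Mobp. The Mobp window held 6 ACAAAG matches and the Olig2 window 1 ACAATG match. The GC content was 60% for Cspg4, 51% for Pdgfra, 59.7% for Cnp and 66.3% for Cldn11, against a median of 52.7% over all promoters.

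The deposited normalized counts summed to between 39781901 and 42975283 per library. Gpd1 stood at 1347 to 21351 in the 6 KO libraries, against 25106 to 26566 in the 3 controls, and sgRNA1 KO replicate 3 held 82.6% of the control mean. Every KO library was below every control, with a pooled log2 fold change of -1.99 (SE 0.72, limma adjusted p = 0.0516). That library and sgRNA2 KO replicate 1 lay nearest the controls over all tested genes, with correlations of 0.9616 to 0.9721 with single controls, against 0.9093 to 0.945 for the other 4 KO libraries. Results given below without this pair are no independent check, since the pair was chosen for its likeness to the controls. Without it 7674 genes were called in limma in pooled KO, against 6227 with all libraries. The median SD of a gene on the log2 scale was 0.323 in sgRNA1 KO, 0.344 in sgRNA2 KO and 0.086 in control. Values below are normalized counts unless stated, and fold changes are on the log2(value + 1) scale.

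In KO against control, with both guides pooled, Cspg4, Pdgfra and Cnp rose and Cldn11 fell. Olig1, Olig2, Sox10 and Mobp did not pass the test, and Mbp was too low to enter it. Thus 4 of the 8 tested members passed an adjusted p of 0.05 in limma, of which 3 were higher and 1 lower, where 39.3% of all 15827 tested genes passed (19.1% higher and 20.2% lower). The same 4 members had KO and control values that did not overlap, as did 44.8% of all tested genes (21.1% higher and 23.8% lower). These shares are close, so the counts alone do not set the members apart from other genes. Of the precursor genes 2 of 5 rose and 0 fell, with a median log2 fold change of 1.40, and of the myelin genes that passed the filter 1 of 3 rose and 1 of 3 fell, with a median of 0.18. The median over all tested genes was -0.01. In bulk RNA, fewer cells of a type and less RNA per cell cannot be told apart.

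**Figure D1:**
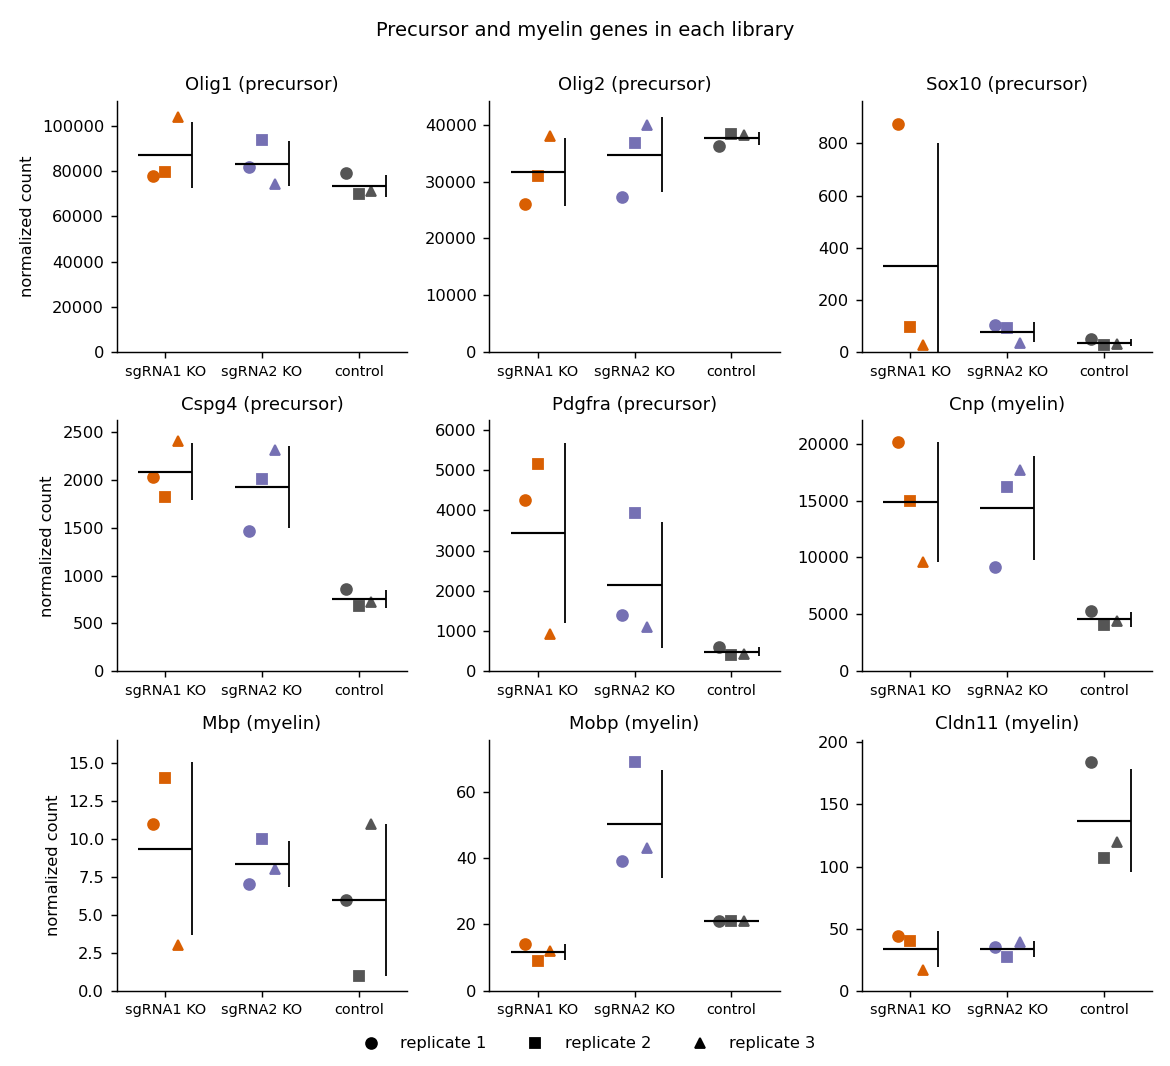
Normalized count of each of the 9 genes in each library (y axis, from 0, a scale of its own in each panel), for sgRNA1 KO, sgRNA2 KO and control; symbols are replicates, horizontal bars are means and vertical bars are SD (n = 3). All 6 KO values of Cspg4, Pdgfra and Cnp lie above the controls and all 6 of Cldn11 lie below, while Mobp lies below the controls at 21 with sgRNA1 and above them with sgRNA2.

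Cspg4 (ENSMUSG00000032911, chromosome 9 of mm10, 56865033 to 56899870) encodes the NG2 proteoglycan. It stood at 2025, 1821 and 2405 in the sgRNA1 KO libraries and at 1464, 2004 and 2309 in the sgRNA2 KO libraries, against 862, 684 and 719 in control. Every KO library lay above every control; the lowest KO value, in sgRNA2 KO replicate 1, was 1464 against 862 in the highest control. Its mean was 2005 ± 340 in KO (SD, n = 6) and 755 ± 94.3 in control (SD, n = 3), a log2 fold change of 1.40 (SE 0.17, limma adjusted p = 0.00072). The change passed with each guide taken alone, at 1.46 (SE 0.20) with sgRNA1 and 1.33 (SE 0.20) with sgRNA2. Without both KO libraries nearest the controls the pooled value was 1.43. The KO library with the most Gpd1, sgRNA1 KO replicate 3, also had the most Cspg4 of all 9 libraries.

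Pdgfra (ENSMUSG00000029231, chromosome 5, 75152292 to 75198215), the receptor gene for PDGF, split the KO libraries. It stood at 4251, 5154 and 921 in the sgRNA1 KO libraries and at 1390, 3933 and 1105 in the sgRNA2 KO libraries, against 613, 420 and 436 in control. All KO values lay above all controls, but 3 KO libraries lay at 3933 to 5154 and the other 3 at 921 to 1390. The log2 fold change was 2.20 (SE 0.57, limma adjusted p = 0.0147) in pooled KO and 2.49 (SE 0.66, limma adjusted p = 0.0222) with sgRNA1. With sgRNA2 it was 1.91 (SE 0.66), which missed at a limma adjusted p of 0.0671, and the difference between the guides was 0.58 (95% interval -0.92 to 2.08), which was not called. The sgRNA2 value was called under 5 of 19 alternatives: weights for each group's variance (limma adjusted p = 0.0279), a replicate block (0.0442), without sgRNA1 KO replicate 3 (0.011), without both KO libraries nearest the controls (0.014) and with only the 6 libraries compared (0.0215). The pooled call was lost without control replicate 2 (limma adjusted p = 0.0639) or control replicate 3 (0.0597). The sgRNA1 call was lost without sgRNA1 KO replicate 1 (0.0845) or 2 (0.0786), or without control replicate 1 (0.0502), 2 (0.0773) or 3 (0.0729).

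The KO libraries with high Pdgfra were also those with the fewest transcripts of cell division. They also lay farthest from the controls over all tested genes, with correlations of 0.9093 to 0.9375 with single controls. Genes outside the lineage lists, such as Vps13b and Usp20, split the KO libraries in the same way. Averaged over 15 proliferation genes, the log2 ratio to control was -2.77, -2.93 and -2.01 in sgRNA1 KO replicates 1 and 2 and sgRNA2 KO replicate 2. It was -0.64, -0.67 and -1.34 in sgRNA1 KO replicate 3 and sgRNA2 KO replicates 1 and 3. Over the list, 0 of 15 genes rose and 11 fell in limma in pooled KO, where 20.2% of all tested genes fell. With sgRNA1 15 fell (18.9% of all tested genes) and with sgRNA2 1, Ccne2 (10.7%). Yet all 15 had sgRNA2 KO values below every control, as did 28.3% of all tested genes, and their median log2 fold change with sgRNA2 was -1.25. The summed level was 29025 to 133802 in KO and 199622 to 210527 in control. The part of proliferation in the Pdgfra result was not tested.

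Among the partners of PDGFRA, the ligand genes moved both ways. Pdgfd, whose ligand acts mainly through the beta receptor, rose to 27 to 150 in KO libraries, against 1 to 2 in control, a ratio of 68.9 (95% Clopper-Pearson interval 26.7 to 254, covering counting error only). Pdgfa, the ligand gene that drives precursor division, fell, with 412 ± 98.6 in KO (SD, n = 6) and 896 ± 126 in control (SD, n = 3), a log2 fold change of -1.15 (SE 0.22, limma adjusted p = 0.00448). Pdgfc fell as well, at -0.47 (SE 0.15, limma adjusted p = 0.0335), and lost its call under 6 of 18 alternatives. The beta receptor gene Pdgfrb stood at 0 to 3 in KO and 1 to 4 in control. In all, 2 of the 5 tested genes of this list rose, Pdgfra included, and 2 fell, where 19.1% of all tested genes rose and 20.2% fell.

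The genes of the transcription factors OLIG1 and OLIG2, which are neighbors on chromosome 16 with 41094 bases between them, were among the most abundant transcripts of these cells. Scaled by exon length, Olig1 reached the 99.9th percentile of tested genes and Olig2 the 99.7th, with means per kilobase of 39400 and 13100 in KO and 33900 and 14900 in control. Olig1 (ENSMUSG00000046160, 91269772 to 91271933) stood at 77823, 79656 and 103831 in the sgRNA1 KO libraries and at 81753, 93670 and 74269 in the sgRNA2 KO libraries, against 78890, 69816 and 71304 in control. Olig2 (ENSMUSG00000039830, 91225457 to 91228677) stood at 26003, 30955 and 38063 in the sgRNA1 KO libraries and at 27362, 36809 and 39961 in the sgRNA2 KO libraries, against 36225, 38291 and 38238 in control. For both genes the groups overlapped. The log2 fold change in pooled KO was 0.21 for Olig1 (95% interval -0.07 to 0.49, limma adjusted p = 0.207) and -0.20 for Olig2 (-0.54 to 0.14, limma adjusted p = 0.317). Changes as large as those of Cspg4 or Cnp lay outside both intervals. Olig1 per kilobase was 2.17 to 3.50 times Olig2 in KO libraries and 2.13 to 2.55 times in controls, with sgRNA2 KO replicate 3 at 2.17 the one KO library inside the control range. Without sgRNA1 KO replicate 3 and sgRNA2 KO replicate 1, Olig2 with sgRNA1 was called lower, at -0.41 (limma adjusted p = 0.0181), and with sgRNA2 the sign turned to 0.03.

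Sox10, the gene of a transcription factor that acts in precursors and in myelinating cells, was low in all but 1 library. It stood at 873, 98 and 26 in the sgRNA1 KO libraries and at 104, 94 and 33 in the sgRNA2 KO libraries, against 50, 26 and 31 in control. The groups overlapped, since sgRNA1 KO replicate 3 and sgRNA2 KO replicate 3 lay within the controls. The pooled log2 fold change was 1.45 (95% interval -0.61 to 3.50), which did not pass in limma (adjusted p = 0.23). With sgRNA1 alone it was 1.91 (SE 1.07, limma adjusted p = 0.183), and it was called higher at 3.06 both without sgRNA1 KO replicate 3 (limma adjusted p = 0.0172) and without both libraries nearest the controls (0.0262). Both settings leave out the sgRNA1 KO library that lay within the controls, so they do not establish a rise. The gene lies on chromosome 15 (ENSMUSG00000033006, 79154908 to 79165240). Erbb3, a neuregulin receptor gene of Schwann cells and oligodendrocytes, was highest in the same library as Sox10, at 179 in sgRNA1 KO replicate 1 and 12 to 56 in the other KO libraries, against 3 to 7 in control.

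Of the myelin genes, Cnp (ENSMUSG00000006782, chromosome 11, 100574904 to 100591729) was the abundant one, at the 97th percentile per kilobase. It stood at 20149, 14935 and 9618 in the sgRNA1 KO libraries and at 9155, 16208 and 17647 in the sgRNA2 KO libraries, against 5341, 4074 and 4388 in control. All KO values were above all controls, and the lowest were those of the pair of libraries nearest the controls. The log2 fold change was 1.62 (SE 0.26, limma adjusted p = 0.00219) in pooled KO, 1.64 (SE 0.31) with sgRNA1 and 1.59 (SE 0.31) with sgRNA2, each called, and 1.91 pooled without that pair. With sgRNA2 the call was lost without control replicate 2 (limma adjusted p = 0.0607) or 3 (0.0559). Exons of Cnp overlap those of Dnajc7 on the opposite strand, and without a stated strand setting reads of the overlap cannot be assigned. Dnajc7 stood at 5775 to 11994 in KO and 6510 to 7142 in control.

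Cldn11 (ENSMUSG00000037625, chromosome 3, 31149920 to 31164324) went the other way. It stood at 44, 40 and 17 in the sgRNA1 KO libraries and at 35, 27 and 39 in the sgRNA2 KO libraries, against 184, 107 and 120 in control. Every KO library lay below every control, and the mean was 33.7 with each guide. The log2 fold change was -2.02 (SE 0.32, limma adjusted p = 0.00229) in pooled KO, -2.06 (SE 0.39) with sgRNA1 and -1.97 (SE 0.39) with sgRNA2, and -1.82 pooled without the pair nearest the controls. The sgRNA2 call was lost without control replicate 1 (limma adjusted p = 0.0515) or 3 (0.0536). Cnp and Cldn11, both myelin genes, thus changed in opposite directions in the same libraries.

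Mobp (ENSMUSG00000032517, chromosome 9, 120149707 to 120181484) separated the guides. It stood at 14, 9 and 12 in the sgRNA1 KO libraries and at 39, 69 and 43 in the sgRNA2 KO libraries, against 21, 21 and 21 in control. With sgRNA2 it rose, with a log2 fold change of 1.18 (SE 0.30, limma adjusted p = 0.0279). With sgRNA1 it was -0.82 (SE 0.30, limma adjusted p = 0.0629), which missed. The difference of sgRNA1 minus sgRNA2 was -1.99 (SE 0.30, 95% interval -2.68 to -1.31), with an unadjusted p of 0.000106 that did not pass the adjustment over all genes in limma (adjusted p = 0.762). The pooled value of 0.18 (95% interval -1.17 to 1.53) was not called. The sgRNA2 call was lost without sgRNA2 KO replicate 2 (limma adjusted p = 0.0841) or control replicate 1 (0.0813), 2 (0.105) or 3 (0.10). These levels lie at the 3.15th percentile per kilobase, where counting error is a large part of the spread, and exons of Mobp overlap Gm38642 on the same strand.

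Mbp, the gene of myelin basic protein, stood at 11, 14 and 3 in the sgRNA1 KO libraries and at 7, 10 and 8 in the sgRNA2 KO libraries, against 6, 1 and 11 in control. The groups overlapped, and its mean of 7.89 over the 9 libraries was under the minimum of 10 for limma. A two-sided exact permutation test over the 84 splits into 6 and 3 gave p = 0.31 for a log2 difference of 0.72, where 0.0119 was the smallest p possible. No difference in Mbp was detected, and at counts this low only a large one could have been seen. The locus also gives longer transcripts outside the myelin program, which gene-level values do not separate.

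**Figure D2:**
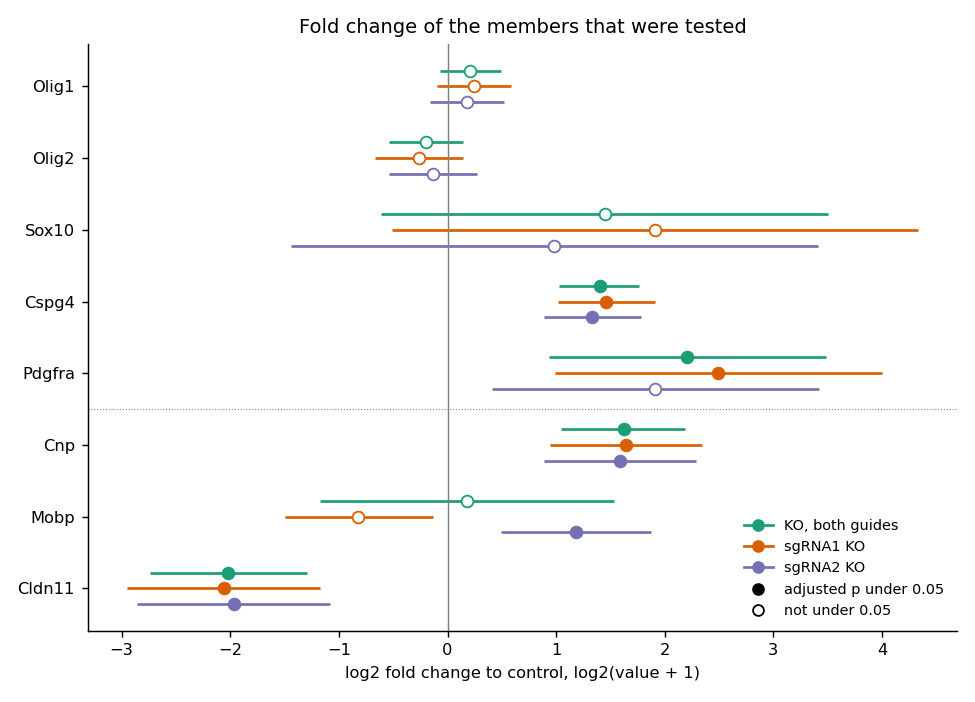
Log2 fold change to control (x axis) of the 8 members tested, for KO with both guides pooled, sgRNA1 KO and sgRNA2 KO, with precursor genes above and myelin genes below the dotted line; bars are 95% intervals from limma and filled points passed an adjusted p of 0.05. Cspg4 and Cnp lie between 1.33 and 1.64 for both guides, Cldn11 near -2, and Mobp on opposite sides of 0 for the 2 guides.

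Each guide was compared with the same 3 controls, so the guide comparisons are not independent. With sgRNA1, Cspg4, Pdgfra and Cnp were higher and Cldn11 lower, where 36.0% of all tested genes passed in limma (17.1% higher and 18.9% lower). Values of sgRNA1 KO and control did not overlap for 3 members on the higher and 2 on the lower side, Mobp included, as for 60.5% of all tested genes (28.5% higher and 32.0% lower). With sgRNA2, Cspg4, Cnp and Mobp were higher and Cldn11 lower, where 22.1% passed (11.4% higher and 10.7% lower). Values of sgRNA2 KO and control did not overlap for 4 members on the higher side, Pdgfra included, and 1 on the lower, as for 54.6% of all tested genes (26.3% higher and 28.3% lower). Between the guides 0 of the 15827 tested genes passed in limma (0%), while 474 had an unadjusted p under 0.05, Mobp being the only member among them. Mobp was also the 1 member whose guide groups did not overlap, as for 3.70% of all tested genes (1.90% higher and 1.79% lower). In limma, the Cspg4, Cnp and Cldn11 difference of sgRNA1 minus sgRNA2 was 0.13 (95% interval -0.31 to 0.57), 0.05 (-0.65 to 0.75) and -0.09 (-0.98 to 0.79). These intervals do not show equal effects, but each excludes a difference between guides as large as that gene's own change from control.

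Averaged over the 5 precursor genes, the log2 ratio to control was 1.75, 1.2 and 0.55 in the sgRNA1 KO libraries and 0.75, 1.24 and 0.57 in the sgRNA2 KO libraries, against 0.23, -0.15 and -0.07 in control. Averaged over the 4 myelin genes, it was 0.28, 0.08 and -0.76 in the sgRNA1 KO libraries and 0.13, 0.56 and 0.48 in the sgRNA2 KO libraries, against 0.26, -0.49 and 0.23 in control. The precursor mean was thus above the controls in all 6 KO libraries and the myelin mean was not. Precursor minus myelin was 1.47, 1.13 and 1.31 in the sgRNA1 KO libraries and 0.63, 0.68 and 0.10 in the sgRNA2 KO libraries, against -0.03, 0.33 and -0.30 in control, so sgRNA2 KO replicate 3 lay within the controls. Without Mbp, which was under the filter, it was 1.75, 1.58 and 1.41 in the sgRNA1 KO libraries, 0.76, 0.83 and 0.17 in the sgRNA2 KO libraries and at most 0.01 in control, so that every KO library lay above every control. This second set of values was added after the first was seen. Within each mean single genes differed widely. In sgRNA1 KO replicate 1 the precursor mean rested on Sox10 (4.63) and Pdgfra (3.14), with Olig1 at 0.09 and Olig2 at -0.53, and the myelin mean combined Cnp at 2.14 with Cldn11 at -1.58.

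**Figure D3:**
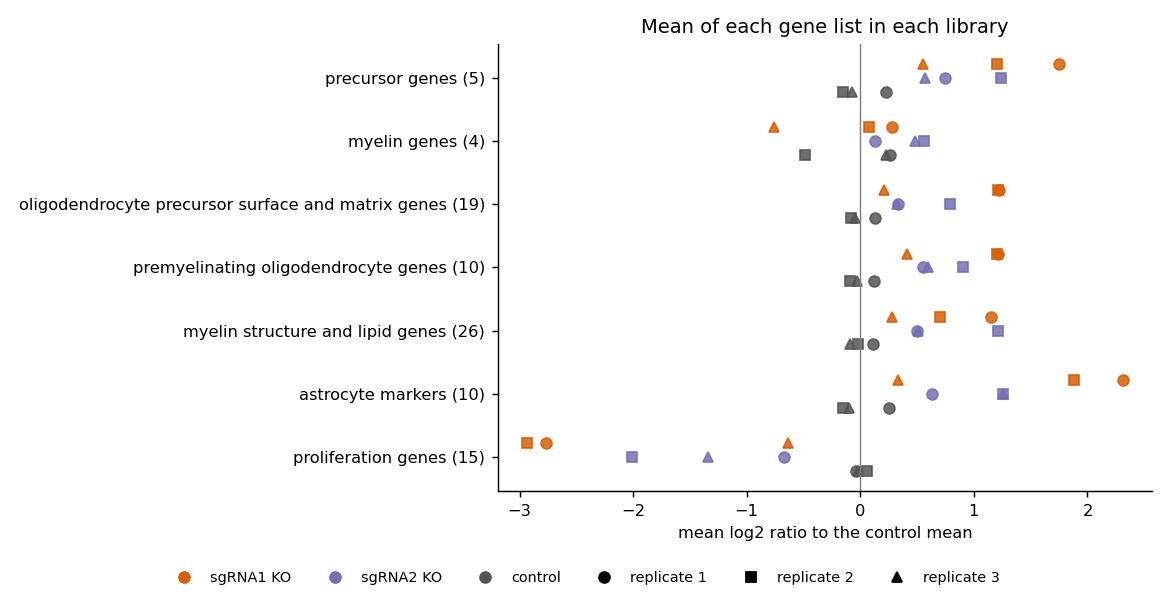
Mean log2 ratio to the control mean (x axis) over the genes of each list (number of genes in brackets), with 1 point for each library, colored by group and shaped by replicate. The precursor mean is 0.55 to 1.75 in KO libraries and the proliferation mean -2.93 to -0.64, and of the KO libraries sgRNA1 KO replicate 3 lies nearest the controls in all rows but the myelin one.

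Around the members, 91 further genes of the oligodendrocyte lineage were listed, of which 73 were tested. In pooled KO 25 of them rose and 4 fell in limma, against 19.1% and 20.2% of all tested genes, with a median log2 fold change of 0.54 against -0.01 over all tested genes. With sgRNA1 26 rose and 3 fell, against 17.1% and 18.9% of all tested genes. With sgRNA2 17 rose and 6 fell, against 11.4% and 10.7%. The lists were chosen with earlier results of these data known, so these counts only describe and are no test of the lineage.

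Of the surface and matrix genes of precursors, 8 of 19 rose and 1 fell, where 19.1% of all tested genes rose and 20.2% fell. Of the 8, Ptprz1 (limma adjusted p = 0.0495) lost its call under 9 of 18 alternatives and Neu4 under 3, both named after their values were seen. Pcdh15, a cadherin gene of precursors, averaged 7858 ± 4946 in KO (SD, n = 6) and 1000 ± 108 in control (SD, n = 3), a log2 fold change of 2.70 (SE 0.52). Rlbp1, a retinaldehyde-binding protein gene also active in astroglia, rose by 2.57 (SE 0.28) and Lhfpl3, a tetraspan membrane protein gene, by 2.20 (SE 0.41). Several other proteoglycan genes rose with Cspg4 (named after their values were seen). Cspg5 averaged 35652 ± 4128 in KO and 13718 ± 1821 in control (SD, n = 6 and 3), Bcan (brevican) had a log2 fold change of 1.60 (SE 0.27) and Ncan (neurocan) one of 1.0 (SE 0.21). Vcan (versican) did not pass in pooled KO, at -1.09 (SE 0.46, limma adjusted p = 0.0816). Cacng4, a calcium channel subunit gene, fell at -1.03 (SE 0.36, limma adjusted p = 0.0458) and lost its call under 7 of 18 alternatives.

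Of the premyelinating genes, 6 of 10 rose and 1 fell, where 19.1% of all tested genes rose and 20.2% fell. Gpr17, a receptor gene of the stage between precursor and myelinating cell that holds back maturation, stood at 10109, 5553 and 912 in the sgRNA1 KO libraries and at 2314, 5360 and 1326 in the sgRNA2 KO libraries, against 453, 181 and 255 in control. It was above all controls in every KO library, with a log2 fold change of 3.47 (SE 0.71, limma adjusted p = 0.00595), and it was highest in the 3 libraries with high Pdgfra. Bcas1, an early marker of cells that begin to myelinate, had a log2 fold change of 1.36 (SE 0.22), and it was also named after its values were seen. Sirt2, a deacetylase gene of myelinating cells, rose by 1.42 (SE 0.36) and Mycl, a Myc family gene, by 1.87 (SE 0.50). Both lost the call without control replicate 2 or 3 (limma adjusted p from 0.0531 to 0.071). Rras2, a small GTPase gene, fell at -0.54 (SE 0.15) and lost its call without any 1 of the 3 controls.

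Of the repressors of maturation, 3 of 12 rose and 0 fell, where 19.1% of all tested genes rose and 20.2% fell. Hes5, a Notch target gene, rose by 2.33 (SE 0.33) and Sox5, whose factor competes with SOX10, by 0.59 (SE 0.15), besides Gpr17. Sox5 lost its call without control replicate 2 or 3. Of the lineage transcription factors, 2 of 10 rose and 1 fell. In both lists the count of rises is close to the share over all tested genes and does not set the list apart. Sox8, a close relative of Sox10, averaged 15606 ± 3149 in KO (SD, n = 6) and 8383 ± 982 in control (SD, n = 3), a log2 fold change of 0.88 (SE 0.17). Chd7, a chromatin remodeler gene that works with SOX10, rose by 1.01 (SE 0.30) and lost its call under 4 of 18 alternatives. Zfp488, an oligodendrocyte zinc finger gene, fell to 0 to 17 in KO, against 47 to 61 in control (log2 fold change -3.61, SE 0.78). Myrf, the gene of a main regulator of myelin genes and named after its values were seen, stood at 170 to 375 in KO and 153 to 182 in control and did not pass (limma adjusted p = 0.0769).

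Of the myelin structure and lipid genes, with Cnp, Mobp and Cldn11 counted, 8 of 26 rose and 2 fell, where 19.1% of all tested genes rose and 20.2% fell. Gpr37, a receptor gene of maturing oligodendrocytes, stood at 37 to 437 in KO and 1 to 2 in control, a ratio of 93 (95% Clopper-Pearson interval 36.2 to 342, counting error only). Gjc3, a connexin gene, rose by 2.74 (SE 0.72) and Plxnb3, a plexin gene of oligodendrocytes, by 2.65 (SE 0.38), while Dock5, a guanine nucleotide exchange factor gene, fell at -2.33 (SE 0.25). Gjc3 lost its call without control replicate 2 or 3. The late myelin genes Mog (1 to 4 in KO, 1 to 3 in control), Mag (0 to 3 in KO, 0 to 1 in control) and Opalin (2 to 15 in KO, 0 to 4 in control), also named after their values were seen, were under the filter, as Mbp was. The transcripts of these 3 late genes were thus at or near 0 in every library but for Opalin in KO.

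**Figure D4:**
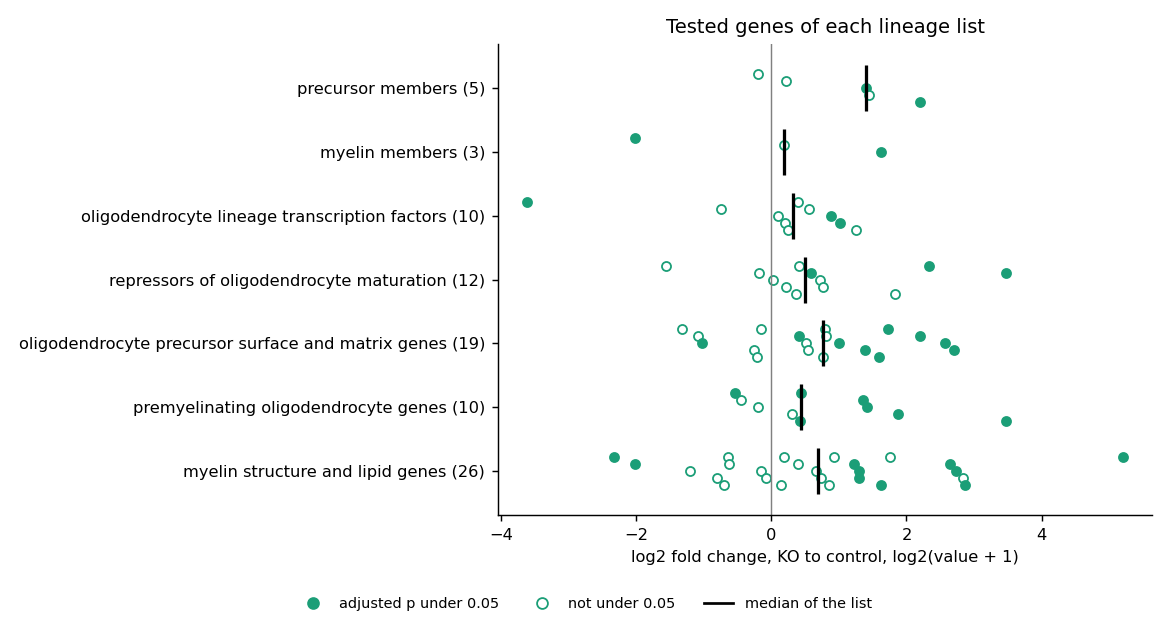
Log2 fold change of KO to control (x axis) for each tested gene of the member lists and of the 5 lineage lists (number of tested genes in brackets); filled points passed an adjusted p of 0.05 in limma and black lines are list medians, from 0.18 for the myelin members to 1.40 for the precursor members. Genes lie on both sides of 0 in every list.

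Several members are shared with other cell types, so markers of those types were measured beside them. Each count of markers here stands beside the 19.1% of all tested genes that rose and the 20.2% that fell in pooled KO. With so few markers per list, the counts alone do not set a list apart. For pericytes, which also carry NG2, 2 of 4 tested markers rose and 2 fell in pooled KO. Rgs5 averaged 2.67 in KO and 65.0 in control, and Acta2 averaged 185 in KO and 2203 in control. Pdgfrb, Kcnj8 and Anpep were at 5 or fewer in every library. Notch3, also a gene of neural stem cells, rose by 1.15 (SE 0.23). Des, the other marker that rose, stood at 7 to 29 in KO and 3 to 6 in control, and it was named after its values were seen. The summed pericyte level was 6075 to 13159 in KO and 5879 to 7282 in control, most of it from Notch3. For Schwann cells, which share Sox10, 2 of 8 rose and 1 fell, and the sum was 3240 to 7040 in KO and 2910 to 3045 in control. Ngfr, a neurotrophin receptor gene of that list, fell by 1.81 on the log2 scale. Of the microglia markers 4 of the 5 in the table averaged under 10, with sums of 34 to 64 in KO and 30 to 35 in control. Endothelial markers had 0 of 4 risen and 2 fallen (Flt1 and Kdr), with sums of 98 to 260 in KO and 592 to 647 in control. Kdr lost its call under 6 of 18 alternatives, each control left out among them.

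Of the astrocyte markers, 4 of 10 rose and 0 fell in pooled KO, where 19.1% of all tested genes rose and 20.2% fell. The summed astrocyte level was 174706 to 358694 in KO and 119341 to 129824 in control. The glutamate transporter gene Slc1a2 rose by 2.51 (SE 0.33) and the glutamine synthetase gene Glul by 2.26 (SE 0.27). S100b, which oligodendrocytes share, stood at 1877 to 11812 in KO and 201 to 412 in control. Gfap and Aldh1l1, named after their values were seen, did not pass and lay on both sides of the controls. Gfap stood at 373 to 23509 in KO and 3348 to 4827 in control, and Aldh1l1 at 2191 to 35433 and 8383 to 9644. With sgRNA2 Gfap lay below every control, at 916 to 2118. Neuron markers had 2 of 7 risen and 0 fallen, of which Map2 lost its call under 6 of 18 alternatives and Syp under 3, with sums of 48255 to 126239 in KO and 43075 to 44378 in control. The part of these other markers in the members' changes was not tested.

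Genes whose pattern over the 9 libraries was most like each member were found by Pearson correlation of log2 values among 11532 genes with a mean of at least 50. The points share the KO and control grouping and the libraries, so the values only describe. Cnp was followed most closely by Slc25a34 (r = 0.998) and Cnppd1 (r = 0.997), Pdgfra by Vps13b and Usp20 (r = 0.995 each) and Cspg4 by Fars2 (r = 0.991) and P3h3 (r = 0.984). Cldn11 was closest to Mylk (r = 0.974) and Samd5 (r = 0.967), Sox10 to Zbtb46 (r = 0.976) and Zfc3h1 (r = 0.967), Olig2 to Hes1 (r = 0.922) and Trib1 (r = 0.891), and Olig1 to Ppp3cc (r = 0.901) and Gpr157 (r = 0.895).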

How the data were processed

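Poly(A) RNA of mouse BTSC was measured in 3 sgRNA1 KO, 3 sgRNA2 KO and 3 control libraries. The authors deposited 1 score per gene and library, a normalized count: reads per gene divided by a library factor, then rounded (inferred from the values, since no header states it). The submitters' processing notes name STAR 2.4.1d, featureCounts, DESeq2 and build mm10, and no annotation release or strand setting is given in the sources used here. Raw counts were not used here, so no count test was run, and with library totals from 39781901 to 42975283 counting error matters only for genes with low counts.

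Values were transformed as log2(value + 1), which understates fold changes of low genes, and only the 15827 genes averaging 10 or more across all libraries entered the test. Differences were fitted in R 4.3.3 by limma 3.58.1, using its trend option and two-sided p-values, and called at a Benjamini-Hochberg adjusted p under 0.05 over all tested genes. KO against control was fitted with 2 groups, the guides with 1 fit of 3 groups. The fit was tested on simulated data. Positions, exon lengths and overlaps came from GENCODE M21 on the same build, and promoters from RefSeq (GRCm38.p6). Python 3.11.15, numpy 2.4.6, pandas 2.3.3, scipy 1.17.1 and matplotlib 3.10.9 made the tables and figures.

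The members and lists were chosen with earlier results of these data known. Besides the members and Gpd1, the genes named were up to 3 rises and 3 falls of each list that passed and averaged 50 or more in whichever group was higher (or the 2 most abundant where none passed), and the 2 genes most correlated with each member; others are said to have been named after their values were seen. The alternatives were pseudocounts of 0.5 and 5, no filter, a minimum mean of 50, a replicate block, quantile normalization, weights for each group's variance, rescaling by median of ratios, each library left out, fits of only the 6 libraries being compared and both KO libraries nearest the controls left out. Some genes of the lists are not reported here by name.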

Additional observations from a re-analysis of the deposited data

Results flagged for a closer look

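Sox10 in sgRNA1 KO replicate 1, at 873, lay far above the other 5 KO libraries, with a gap of 0.908 of the range of the 6. Erbb3 was highest in the same library at 179 (gap 0.737). Zbtb46 was also highest there, at 909 (gap 0.655), but it was named for its likeness to Sox10 over these same libraries. In sgRNA2 KO replicate 2, Gpr37 stood apart at 437 (gap 0.895) and Gjc3 at 5676 (gap 0.827). Smaller gaps were those of Pdgfc in sgRNA1 KO replicate 3 (0.628), Syp in sgRNA2 KO replicate 3 (0.629) and Mog in sgRNA1 KO replicate 2 (0.667, a count of 4). These gaps were taken on the counts and not on the log2 scale used for the fold changes. A chance rate of about 1 in 20 groups would hold only if the counts were normally distributed, which was not tested. As log2 ratios to control, Sox10 was 4.63 in sgRNA1 KO replicate 1 and -0.39 to 1.57 in the other KO libraries. Whether the gaps would be flagged on the log2 scale was not tested.

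Mobp differed between the guides: all 3 sgRNA1 KO libraries lay below the control mean and all 3 sgRNA2 KO libraries above it. The difference of sgRNA1 minus sgRNA2 was -1.99 on the log2 scale, and it did not pass the adjustment over all genes in limma (adjusted p = 0.762).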

How the results depend on the processing

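In KO against control, Cspg4, Cnp and Cldn11 kept their direction and their call under all 18 alternatives, and Pdgfra under 16. Leaving out 1 library moved the number of members called higher between 2 and 3 in pooled KO, 2 and 4 with sgRNA1 and 1 and 4 with sgRNA2, and of members called lower between 1 and 1, 1 and 2, and 0 and 1. Between the guides it gave 0 higher and 0 to 1 lower, the one being Mobp without sgRNA1 KO replicate 3 (limma adjusted p = 0.0483). With sgRNA1, 2 members were lower, against 1, under quantile normalization, without both KO libraries nearest the controls and with only the 6 libraries compared. The number of all genes called was 6227 in pooled KO (2759 to 7609 with 1 library left out), 5699 with sgRNA1 (1252 to 7915), 3505 with sgRNA2 (612 to 5496) and 0 between the guides (0 to 173), and without both KO libraries nearest the controls it was 6268 with sgRNA2 and 30 between the guides. In pooled KO the count was 3899, 2759 and 2987 without control replicates 1, 2 and 3.

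The sign turned only for values that were not called. With 1 library left out, pooled Mobp ranged from -0.12 to 0.44 (-0.03 under quantile normalization), pooled Hes1 from -0.39 to 0.00, and Olig2 with sgRNA2 from -0.24 to 0.03 (0.03 also without both libraries). Between the guides, Olig1 ranged from -0.07 to 0.15, Olig2 from -0.29 to 0.00, Sox10 from -0.43 to 2.08, Cspg4 from -0.06 to 0.27, Cnp from -0.25 to 0.33 and Cldn11 from -0.34 to 0.32. Without both libraries it was -0.08 for Olig1, -0.16 for Cspg4 and 0.36 for Cldn11. The cause was not tested.

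Replicate numbers were not taken as pairs: deviations of same-numbered libraries correlated between -0.345 and 0.332, and the best match was the own number in 7 of 18 cases. With the replicate block 5786 genes were called in pooled KO, 5241 with sgRNA1 and 2632 with sgRNA2, and 0 between the guides. The block added Pdgfra with sgRNA2 (limma adjusted p = 0.0442) and dropped Mobp with sgRNA2 (0.0578). Counting error limits Mbp, Mobp, Sox10 and Cldn11 most.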
